A study of Rattus norvegicus with 29 samples.

Results

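ATAC-seq reads accumulate where a transposase reaches exposed DNA, and the stretches so marked are open chromatin regions (OCRs). The OCRs described here had a peak in at least 6 of the 8 libraries of the dentate gyrus (DG) and in at least 6 of the 8 libraries of Ammon's horn (CA), and in at most 2 of the 13 libraries of the nucleus accumbens (NAc) and the subventricular zone (SVZ). An overlap of 1 bp with a peak was enough. The OCRs were thus chosen by measured peak calls, which used every library. The rule selected 1912 of the 98237 OCRs of the count table (1.95%), which are called hippocampal OCRs here because DG and CA are parts of the hippocampus. They made up 4.44% of the 43050 OCRs that met the DG and CA part of the rule. Positions are given in the rat build rn6 and counted from 1.

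The libraries came from 8 adult male Sprague-Dawley rats, each of which gave several regions. Each rat was injected intraperitoneally 4 times, at intervals of 2 h, with methamphetamine (METH) at 10 mg/kg or with saline at 1 mL/kg (written Sal in the plots), and tissue was taken a day after the last injection. NAc, DG and CA had 4 saline and 4 METH libraries each, and SVZ had 3 saline and 2 METH libraries. DG and CA were scooped from the posterior brain, whereas NAc and SVZ were punched from frozen slices, so that every library mixed all cell types of its piece of tissue. In such tissue, fewer cells of a type and lower accessibility per cell cannot be told apart. The libraries held 7.55 to 19.4 M counts in OCRs (1 M is 1000000), so that 1 count per M (CPM) stood for about 7.55 to 19.4 counts before normalization. The tissue labels were not checked against marker genes, since an annotation of the build was not used here.

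Open chromatin marks promoters and enhancers, the stretches of DNA where transcription factors bind. Promoters tend to be open in many cell types, while enhancers are often open in a few, so OCRs that differ between brain regions commonly reflect the cells that a region holds. The principal neurons of DG and CA, the granule cells and the pyramidal cells, are glutamatergic. Most neurons of NAc are GABAergic medium spiny neurons, and SVZ is a niche of neural stem cells along the lateral ventricle.

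The peak calls that chose the hippocampal OCRs are given as a description. Of the 1912, 785 (41.1%) had no peak in any library of NAc and SVZ, 574 had a peak in 1 and 553 in 2. At the other side of the threshold lay 502 OCRs that met the DG and CA part of the rule and had a peak in 3 of the 13. A peak in NAc was found at 1013 hippocampal OCRs and a peak in SVZ at 270. Only 97 had a peak in all 16 DG and CA libraries, while 773 had a peak in 13 of the 16.

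Hippocampal libraries did not contribute equally. A DG saline library had a peak at 1801 ± 55.7 of the hippocampal OCRs (SD, n = 4) and a CA METH library at 1833 ± 86.8 (SD, n = 4). Among the DG METH libraries, replicates 2 and 3 had a peak at 1871 and 1843 of them, but replicate 1 at 523 and replicate 4 at 705. Among the CA saline libraries, replicates 1, 3 and 4 had a peak at 1717, 1807 and 1879, but replicate 2 at 799. These 3 libraries stood apart from the other 13 hippocampal libraries in the number of peaks and the counts at the hippocampal OCRs. They also had peaks at the smallest share of all OCRs, at 49.1% and 50.7% in the DG METH libraries and 53.3% in the CA saline library. The other 13 had peaks at 55.7% to 79.9% of all OCRs. In the other 13 libraries, 1099 hippocampal OCRs (57.5%) had a peak throughout. The rule let 2 DG libraries lack a peak, and for 1088 of the 1912 these were DG METH replicates 1 and 4.

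Outside the hippocampus, peaks at these OCRs also came from few libraries. NAc saline replicates 2 and 3 had a peak at 328 and 677 hippocampal OCRs, against 33 and 56 in NAc saline replicates 1 and 4. Among all OCRs, replicates 2 and 3 had a peak at 59.0% and 72.9%, against 53.1% and 64.7% in replicates 1 and 4. Replicate 3 was also the deepest library outside the hippocampus, at 13.8 M counts. The NAc METH libraries had 55, 47, 143 and 48, the SVZ saline libraries 34, 83 and 7, and the SVZ METH libraries 122 and 47. Their shares of all OCRs with a peak were 54.0% to 64.9% in NAc METH and 44.7% to 54.3% in SVZ. NAc saline replicates 2 and 3 together held 59.8% of the 1680 such peaks. They shared 215 of them, which is 65.5% of those of replicate 2 and 31.8% of those of replicate 3.

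**Figure D1:**
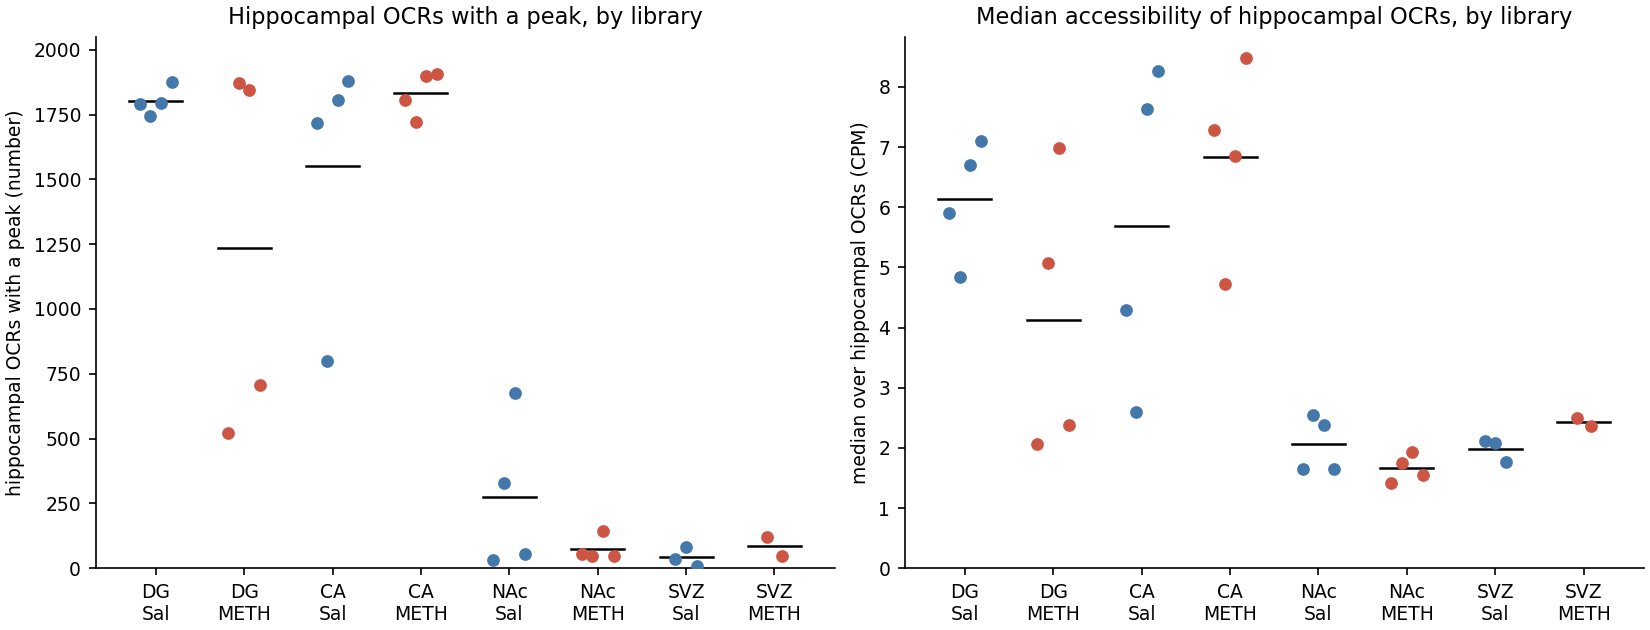
Left, the number of the 1912 hippocampal OCRs with a peak in each library; right, the median CPM over them in each library. Points are libraries in order of replicate (blue saline, red METH) and lines are group means; DG METH replicates 1 and 4 and CA saline replicate 2 lie below the rest of their groups, at 523, 705 and 799 OCRs with a peak.

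The counts followed the peaks. The median CPM over the hippocampal OCRs was 5.91, 4.84, 6.70 and 7.10 in the DG saline libraries and 2.06, 5.08, 6.99 and 2.38 in the DG METH libraries. It was 4.29, 2.59, 7.63 and 8.27 in the CA saline libraries and 7.28, 4.73, 6.85 and 8.48 in the CA METH libraries. Besides the 3 libraries that stood apart, it was 4.29 to 7.28 in hippocampal replicates 1 and 2, which were batch 1. In hippocampal replicates 3 and 4, which were batch 2, it was 6.70 to 8.48. In NAc it ran from 1.41 to 2.55 and in SVZ from 1.77 to 2.50, so that DG METH replicates 1 and 4 lay within the range of NAc and CA saline replicate 2 just above it. The hippocampal OCRs took 0.407% and 0.498% of all counts in those 2 DG METH libraries and 0.524% in that CA saline library, 0.839% to 1.98% in the other hippocampal libraries, and 0.286% to 0.573% in NAc and SVZ.

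In saline rats, the hippocampal OCRs had a median of 6.13 CPM in hippocampus (mean of the DG and CA group means), with quartiles of 4.72 and 7.93, and 2.11 CPM outside it (mean of the NAc and SVZ group means), with quartiles of 1.48 and 2.89. These levels are what peak calls select for and carry no test. The median of all OCRs was 4.41 CPM in hippocampus and 4.44 CPM outside it. A hippocampal OCR was thus of moderate height, since 64.2% of all OCRs were below 6.13 CPM in hippocampus, and 13.7% of all OCRs were below 2.11 CPM outside it. The ratio of the levels had a median of 2.96, quartiles of 2.12 and 4.17 and a highest value of 17.3. It was above 2 for 1500 hippocampal OCRs (78.5%, against 10.9% of all OCRs), above 4 for 522, and under 1 for 10. A lack of called peaks therefore went with lower counts at most but not all of these OCRs. In METH rats the median ratio was 2.74, with 1400 OCRs above 2.

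**Figure D2:**
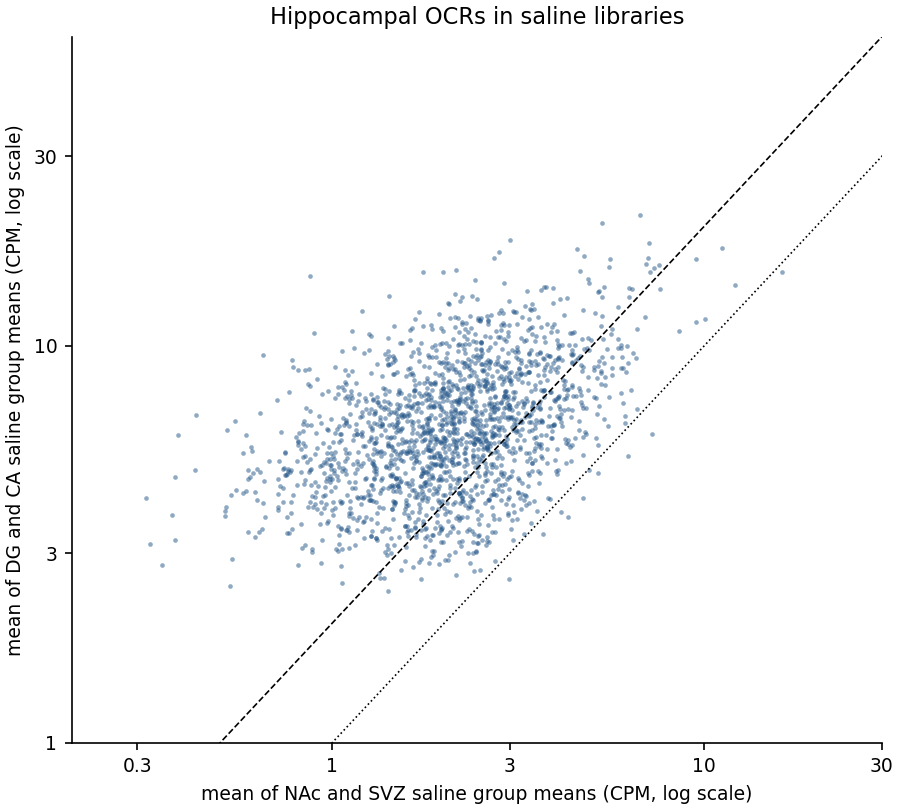
Each point is 1 of the 1912 hippocampal OCRs in saline libraries, with its mean CPM outside the hippocampus on the horizontal axis and in DG and CA on the vertical axis (both log scales). The dotted line marks equal levels and the dashed line a ratio of 2, and 1500 points lie above the dashed line.

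Where the hippocampal OCRs had a peak in hippocampus, its strength beside that of other peaks differed between libraries. The median fold enrichment over local background of their peaks was 4.51 to 8.79 in DG and CA libraries, and that of the peaks at all OCRs was 5.33 to 8.11. In NAc and SVZ the few peaks at these OCRs were weak, with medians of 3.78 to 4.65 against 5.37 to 6.85 at all OCRs. The summits lay near the middle of the OCR, at a median position of 0.49 of its length, with a median SD of 0.0733 of the length between the 13 libraries that did not stand apart.

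The hippocampal OCRs were 729 bp wide at the median (quartiles 591 and 880 bp, range 209 to 1852 bp). All OCRs had a median of 662 bp, and the OCRs open in every library, of the kind to which promoters usually belong, had 983 bp. Only 2.77% of the hippocampal OCRs were under 400 bp wide, against 9.91% of all OCRs, and 13.1% were 1000 bp or wider, against 16.9% of all OCRs and 47.8% of those open in every library. They were spread over all autosomes and X. The share of a chromosome's OCRs that were hippocampal was lowest on chromosome 19 (1.13%, 35 of 3109) and highest on chromosome 17 (2.50%, 90 of 3604). It was 1.35% on X and 0 of 9 on Y. The nearest other OCR was 6159 bp away at the median, against 4779 bp for all OCRs. Another hippocampal OCR lay within 50000 bp of 284 of them (14.9%) and within 10000 bp of 53.

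The densest group lay on chromosome 3. In windows of 500000 bp, of which 1455 held a hippocampal OCR, the fullest held 7 of them among 42 OCRs, at chr3:91507257-91925394, and no other window held more than 5. The 7 were chosen for their position alone. Their mean CPM was 3.53 to 11.6 in hippocampus and 1.18 to 3.17 outside it. The highest of them, chr3:91717859-91719117, was 1259 bp wide. One of the 7, chr3:91758723-91759333, also had the lowest p of all hippocampal OCRs for METH in DG and is described with that comparison.

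The 6 hippocampal OCRs with the highest mean CPM over the 16 hippocampal libraries show the pattern in single regions. The highest was chr20:2103375-2104487, 1113 bp wide, with a mean of 20.5 CPM in hippocampus and 6.36 CPM outside it and no peak in NAc or SVZ. Its CPM was 24.4, 20.0, 25.2 and 22.9 in DG saline, 7.06, 21.3, 21.9 and 6.19 in DG METH, 11.9 and 6.24 in CA saline replicates 1 and 2 and at least 29.6 in the others, and 25.6, 15.4, 22.4 and 37.2 in CA METH. In NAc it ran from 3.69 to 10.2 CPM and in SVZ from 4.05 to 6.97 CPM. The 2 low DG METH libraries and the lowest CA saline library were again those that stood apart, and they overlapped with NAc.

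The next 2 were chr1:41946406-41947702 and chr3:6610216-6611294, at 18.9 CPM each in hippocampus and 4.45 and 2.60 CPM outside it. At chr1:41946406-41947702 the DG METH libraries had 4.56, 17.98, 22.6 and 3.62 CPM, against 18.9 to 30.2 CPM in DG saline. At chr3:6610216-6611294, where the ratio of hippocampus to the other regions was 7.27, they had 3.36, 14.4, 28.3 and 8.20 CPM, against 8.86 to 23.5 CPM in DG saline. Both of these OCRs had a peak in 2 NAc libraries, and they were the highest of the OCRs just inside the threshold. The 2 highest OCRs just outside it, with a peak in 3 libraries of NAc and SVZ, were chr9:12348707-12349341 with 29.4 CPM in hippocampus and 10.7 CPM outside it, and chr11:86989492-86990655 with 21.1 and 4.65 CPM. Their ratios, 2.74 and 4.53, lay within the range of those inside the threshold.

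The remaining 3 of the 6 were chr20:46206107-46206945 (17.5 CPM in hippocampus, 2.72 CPM outside it), chr17:74894861-74896109 (17.1 and 4.15 CPM) and chr1:260907637-260908454 (16.7 and 4.82 CPM). The last had 3.90 to 8.19 CPM in SVZ and 2.14 to 7.11 CPM in NAc. In all 6, DG METH replicate 1 or 4 was the lowest of the DG METH libraries and CA saline replicate 2 the lowest of the CA saline libraries.

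**Figure D3:**
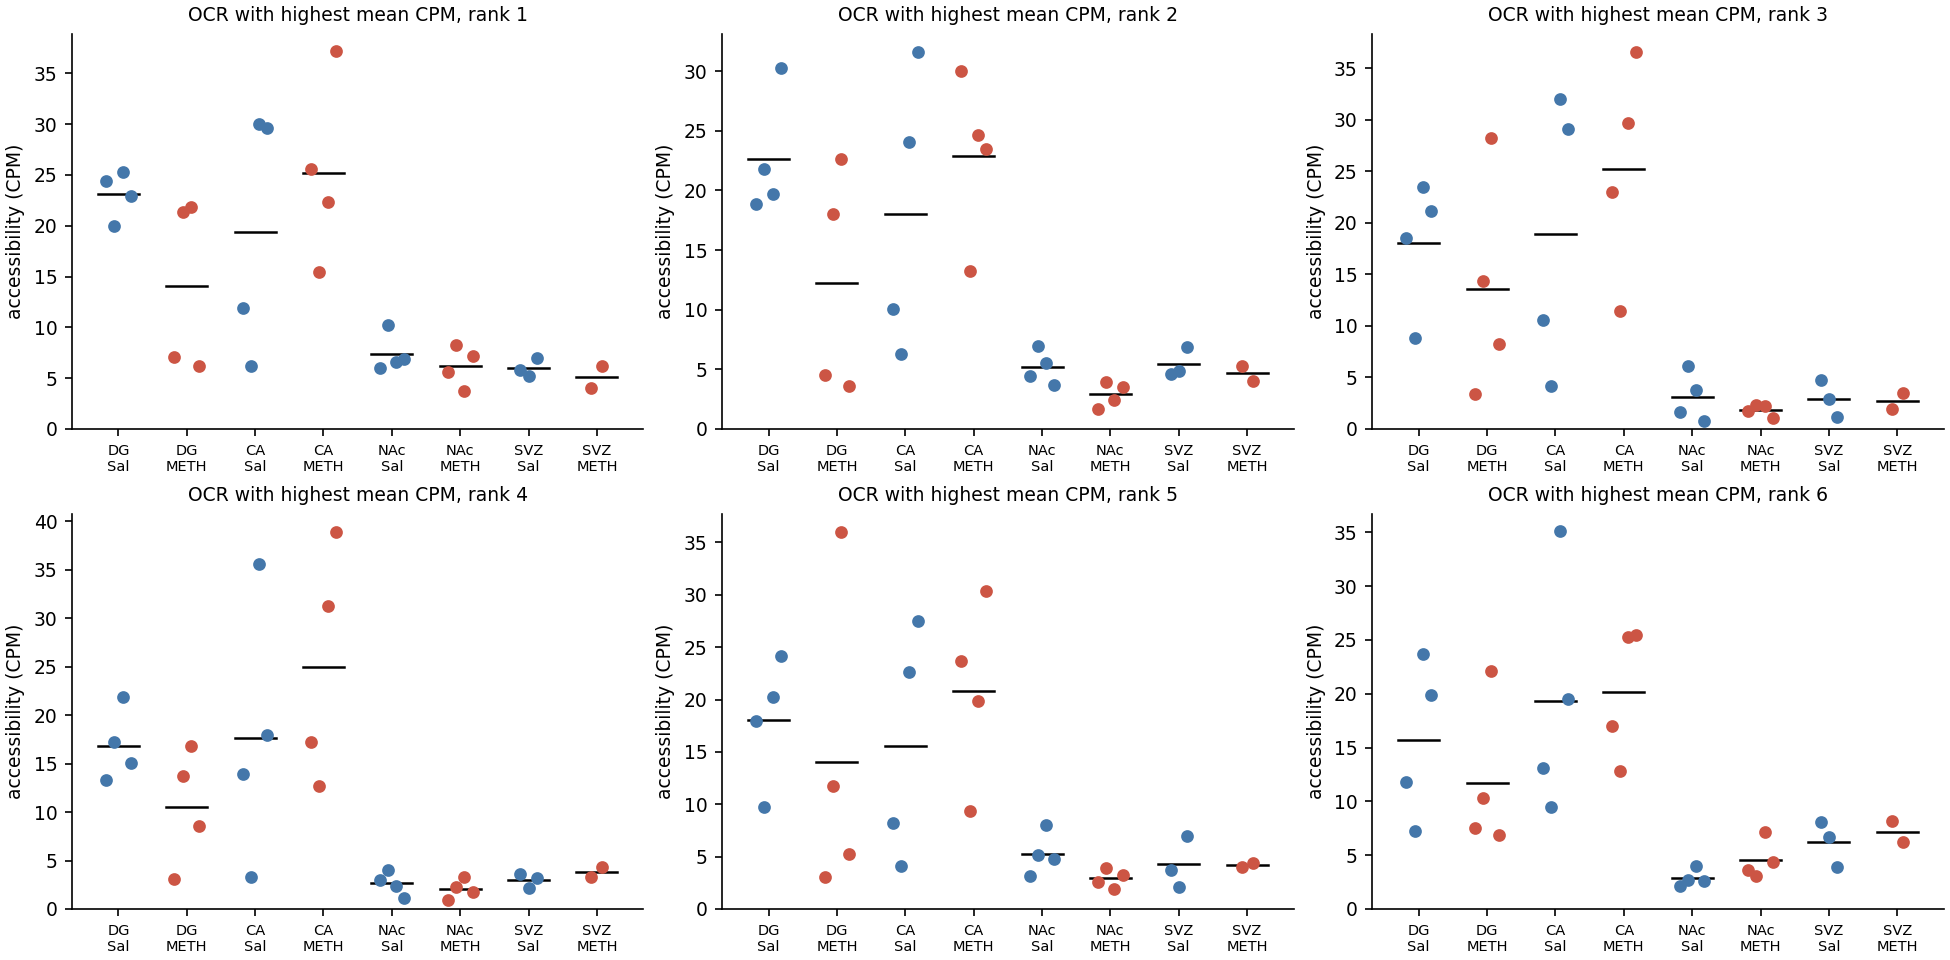
CPM in each library at the 6 hippocampal OCRs with the highest mean CPM in hippocampus, in the order chr20:2103375-2104487, chr1:41946406-41947702, chr3:6610216-6611294, chr20:46206107-46206945, chr17:74894861-74896109 and chr1:260907637-260908454. Points are libraries in order of replicate (blue saline, red METH), lines are group means, and the DG METH and CA saline groups split into high and low libraries at each OCR.

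Low values in the libraries that stood apart ran through most of the 1912. DG METH replicates 1 and 4 and CA saline replicate 2 were the 3 lowest of the 16 hippocampal libraries at 1106 hippocampal OCRs (57.8%), against 13.3% of all OCRs. The first principal component of the 16 libraries took 72.4% of the variance of log2(CPM + 1) of the hippocampal OCRs and 58.5% of that of all OCRs. Across the hippocampal OCRs, the log2 ratio of DG METH replicates 1 and 4 to DG saline correlated with that of CA saline replicate 2 to the other CA saline libraries (Pearson r = 0.63, Spearman rho = 0.52, n = 1912 OCRs, which are not independent). These 2 quantities share no library. The same correlation over all OCRs was r = 0.84.

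The same 3 libraries were also at the high end for the share of counts in the OCRs open in every library, at 76.7%, 73.0% and 72.8%, but DG saline replicate 2 and DG METH replicate 2 reached 72.0% and 72.5%. At a set chosen the other way round (1086 OCRs with a peak in at least 6 NAc and 4 SVZ libraries and in at most 2 hippocampal libraries), the 3 libraries had medians of 0.688, 1.05 and 0.985 CPM. The other hippocampal libraries had 0.685 to 1.55 CPM and NAc and SVZ 2.03 to 10.5 CPM. This set was chosen for few peaks in hippocampal libraries, these 3 included, so its low values there are a description. The part of library quality and of dissection in the low values was not tested.

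In 1 of the 3 animals concerned, the DG and the CA library were each the lowest of their group. In the animal of DG METH replicate 1, the median over the hippocampal OCRs was 2.06 CPM in DG and 7.28 CPM in CA, and in that of DG METH replicate 4 it was 2.38 and 8.48 CPM. In the animal of CA saline replicate 2 it was 4.84 CPM in DG and 2.59 CPM in CA, each the lowest of its saline group. The other DG saline libraries had 5.91 to 7.10 CPM, so this DG library was low by less than the CA library. Over all OCRs, the deviations of DG and CA saline replicate 2 from their group means had the highest correlation of the 39 pairs of libraries from 1 animal (r = 0.73). Over the hippocampal OCRs r was 0.39. There DG and CA saline replicates 3 and 4 had higher r, at 0.65 and 0.56, and replicate 1 had -0.22. In the other 5 animals the ratio of DG to CA ran from 0.860 to 1.38.

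To learn how METH affected these OCRs, the METH and saline libraries of a region were set against each other in edgeR's quasi-likelihood test over all 98237 OCRs. To count as a differentially accessible region (DAR), an OCR needed a fold change above 1.5 and a false discovery rate (FDR) under 0.001. None of the hippocampal OCRs was a DAR in DG, CA, NAc or SVZ, where 0% of all OCRs were DARs. Their lowest FDR was 0.493 in DG and 1.00 in the other regions. With 5 factors of unwanted variation estimated from residuals (RUVr) in the fit, 267 were DARs in DG, all less accessible (14.0%, against 4.56% of all OCRs). In NAc 1 was a DAR (0.0523%, against 0.0143% of all OCRs). The study normalized with RUVr, but the sources used here do not give its number of factors, and 5 was chosen for the present fit. Because peak calls in these same libraries chose the OCRs, the counts that follow are read only against those of all OCRs.

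In DG, the hippocampal OCRs had a median log2 fold change of -0.58 (METH over saline, quartiles -0.81 and -0.29), against -0.15 over all OCRs, and 11.4% of them were above 0. An unadjusted p under 0.05 was found for 226 of them (11.8%), against 9.84% of all OCRs. Of the 226, 219 were less accessible after METH (6.28% of all OCRs were) and 7 more accessible (3.57% of all OCRs). The METH and saline libraries did not overlap at 53 OCRs with lower values (2.01% of all OCRs) and at 6 with higher values (0.524% of all OCRs).

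These values rested on the 2 libraries that stood apart. DG METH replicates 1 and 4 were both below all 4 DG saline libraries at 1382 hippocampal OCRs (72.3%, against 28.8% of all OCRs), whereas DG METH replicates 2 and 3 were so at 58 (3.03%, against 3.69% of all OCRs). Without replicates 1 and 4 (an alternative added once the values were known) the median log2 fold change was -0.04 and that of all OCRs 0.00, and 5 hippocampal OCRs had an unadjusted p under 0.05 (0.262%, against 1.12% of all OCRs), 2 higher (0.289% of all OCRs) and 3 lower (0.828% of all OCRs). The median was -0.36 and -0.37 without DG METH replicate 1 or 4 alone, and -0.67 and -1.04 without replicate 2 or 3 alone. The number with an unadjusted p under 0.05 was 36 and 49 without replicate 1 or 4 (3413 and 3533 of all 98237 OCRs). It was 374 and 955 without replicate 2 or 3 (10181 and 30650 of all OCRs), and 59 without DG saline replicate 4 (5055 of all OCRs). The number over all OCRs thus moved with the library left out too. Each batch held 1 of the 2 low libraries, and the median was -0.60 in batch 1 and -0.54 in batch 2. With the share of counts in the OCRs open in every library as a covariate it was -0.27.

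**Figure D4:**
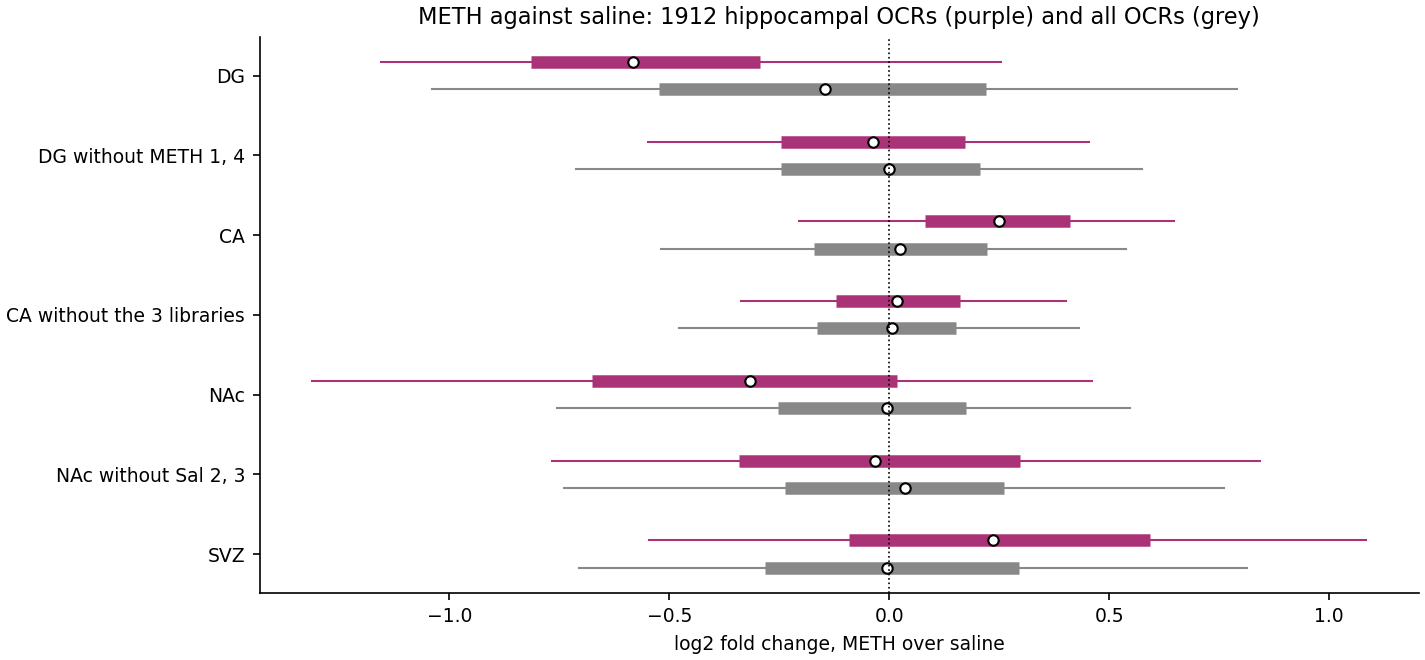
Log2 fold change of METH over saline for the 1912 hippocampal OCRs (purple) and all 98237 OCRs (grey) in each region, with and without the libraries named on the axis. Circles are medians, thick bars the quartiles and thin lines the range from the 5th to the 95th percentile; the DG median of the hippocampal OCRs moves from -0.58 to -0.04 without DG METH replicates 1 and 4.

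The values in DG differed with the ratio of hippocampus to the other regions. The hippocampal OCRs were split into 4 groups of 478 by log2 of the ratio of CPM + 1 in CA METH to CPM + 1 in the mean of NAc and SVZ METH, none of which are libraries of the DG comparison, though the animals are the same. The ratio of CPM itself, without the added 1, overlapped between groups. From the lowest to the highest group, the median ratio of CPM was 1.69, 2.89, 4.16 and 6.71, and the median log2 fold change in DG was -0.16, -0.58, -0.68 and -0.75. The share of OCRs above 0 was 36.2%, 6.90%, 2.09% and 0.418%. Without DG METH replicates 1 and 4 the medians were 0.02, -0.04, -0.04 and -0.09. The same order held for CA saline replicate 2 against the other CA saline libraries, at -0.35, -1.12, -1.38 and -1.57 (log2 of the ratio of CPM + 1). Peak calls in the libraries used for the split were part of the rule. The groups hold only hippocampal OCRs, with no values of all OCRs beside them, so the order is a description.

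Among the 53 hippocampal OCRs with all 4 DG METH libraries below all DG saline libraries was chr3:91758723-91759333, 611 bp wide. It was named for the smallest p among the hippocampal OCRs in DG, so its DG values are a description. Its CPM was 4.48, 9.68, 7.83 and 8.20 in DG saline and 1.12, 3.10, 2.76 and 3.34 in DG METH, so the groups did not overlap. The log2 fold change in DG was -1.55 ± 0.40 (SE) with an edgeR FDR of 0.493, and -1.36 ± 0.49 (SE) without DG METH replicates 1 and 4. It was -1.74 in batch 1 and -1.39 in batch 2.

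In NAc, the same OCR had 1.36, 3.36, 2.80 and 2.62 CPM with saline and 0.806, 0.554, 1.02 and 0.622 CPM with METH. These groups did not overlap either, which held with lower METH values for 4.76% of the hippocampal OCRs and 1.91% of all OCRs, and the log2 fold change was -1.75 ± 0.45 (SE). The NAc libraries came from the animals of the DG libraries, and NAc peak calls were part of the rule (this OCR had a peak in 2 of them), so the NAc values are a description too. The edgeR FDR over all OCRs was 1.00, so it was not a DAR. Of the 4 OCRs named for METH in DG, 1 other had groups that did not overlap in NAc, chr1:166682423-166682945, with 0.876 to 1.46 CPM in saline and 1.48 to 2.77 CPM in METH. At chr3:91758723-91759333 the NAc log2 fold change was -1.41 without NAc saline replicates 2 and 3. In CA the METH libraries had 3.63 to 9.10 CPM and the saline libraries 1.58 to 8.43 CPM (log2 fold change 0.40 ± 0.38), and in SVZ all 5 libraries lay between 1.42 and 2.02 CPM. The other 6 hippocampal OCRs of its group on chromosome 3 had log2 fold changes of -0.84 to 0.60 in DG and -1.07 to 0.31 in NAc.

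The next lowest p among the OCRs less accessible in DG after METH was at chr1:140401076-140401949, with 6.19 to 15.4 CPM in DG saline and 2.32, 4.39, 6.20 and 2.76 CPM in DG METH (log2 fold change -1.34 ± 0.36, FDR 0.493). Its highest METH library overlapped with the lowest saline library, and its NAc libraries lay between 1.21 and 1.95 CPM in both groups. Among those more accessible, chr1:166682423-166682945 had 0.858 to 2.65 CPM in DG saline and 2.76 to 6.58 CPM in DG METH (1.33 ± 0.43, FDR 0.493). The other, chr9:76192482-76193290, had 3.81 to 4.48 CPM and 4.82 to 8.52 CPM (0.71 ± 0.27, FDR 0.493). Both were only weakly hippocampal, at 1.60 and 1.81 times the mean level of NAc and SVZ, and at both the DG groups did not overlap.

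In CA, the hippocampal OCRs had a median log2 fold change of 0.25 after METH (quartiles 0.08 and 0.41), against 0.02 over all OCRs, and 83.8% were above 0. With no adjustment, p was under 0.05 for 11 of them (0.575%, against 0.82% of all OCRs), of which 7 were more accessible (0.353% of all OCRs) and 4 less accessible (0.467% of all OCRs). The METH and saline libraries did not overlap at 4 with higher and 1 with lower values, against 0.483% and 0.363% of all OCRs. The low CA saline replicate 2 was in the saline group. Without it the median was 0.02 and 2 had such a p (319 of all 98237 OCRs). Without CA saline replicate 3 or 4, 119 had such a p in either case (3069 and 4756 of all OCRs). Without replicate 1, 3 did (489 of all OCRs). Without CA METH replicate 1 or 2 the number was 7 and 25 (867 and 1393 of all OCRs). The median was 0.87 in batch 1, which held CA saline replicate 2, and -0.05 in batch 2, so the direction did not hold within both batches.

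The 2 smallest p of each direction in CA belonged to OCRs with modest differences. At chr1:12483608-12484125 the CA saline libraries had 1.25 to 3.34 CPM and the METH libraries 3.38 to 7.58 CPM (log2 fold change 1.02 ± 0.35). At chr2:25331230-25331922 they had 2.30 to 6.98 CPM and 5.15 to 10.3 CPM (0.88 ± 0.37), so the groups overlapped. At chr17:589528-590456 saline had 5.19 to 11.2 CPM and METH 4.38 to 5.69 CPM (-0.61 ± 0.24), and at chr11:58669733-58670317 saline had 2.16 CPM or more and METH 1.10 to 2.73 CPM (-0.71 ± 0.32). Each had an edgeR FDR of 1.00 in CA. The last 2 were close to equal inside and outside the hippocampus, at ratios of 1.28 and 1.17.

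A difference between the METH effects of DG and CA was tested with an interaction term, which was added once the values were known. None of the hippocampal OCRs passed the DAR threshold, nor did any OCR (0%), and their lowest FDR was 0.547. The METH effect in DG minus that in CA had a median of -0.86 for the hippocampal OCRs and -0.20 for all OCRs. An unadjusted p under 0.05 was found for 204 hippocampal OCRs (10.7%, against 8.48% of all OCRs), 194 of them lower in DG (4.53% of all OCRs) and 10 higher (3.95% of all OCRs). Without the 3 libraries that stood apart the median was -0.06 and 5 had such a p (0.262%, against 0.664% of all OCRs). With 1 library left out the number ran from 72 without DG METH replicate 1 to 875 without DG METH replicate 3. Only hippocampal OCRs were counted in these fits, so the numbers cannot be read against all OCRs.

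In NAc, the hippocampal OCRs had a median log2 fold change of -0.32 (quartiles -0.67 and 0.02), against -0.01 over all OCRs. The unadjusted p was under 0.05 for 122 (6.38%, against 2.45% of all OCRs), of which 120 were less and 2 more accessible (1.42% and 1.03% of all OCRs). The groups did not overlap at 91 with lower values (1.91% of all OCRs) and at 5 with higher values (1.04% of all OCRs). Without NAc saline replicates 2 and 3 (an alternative added once the values were known) the median was -0.03. In that fit 15 had such a p (0.785%, against 1.61% of all OCRs), 5 higher (0.892% of all OCRs) and 10 lower (0.722% of all OCRs). The 2 libraries left out held most of the NAc peaks at these OCRs. Their median CPM over them, 2.55 and 2.39, was above the 1.66 of both other saline libraries. Leaving them out lowers the saline level by construction and leaves fewer libraries, so these values are a description. Without saline replicate 2 or 3 alone, 53 and 51 had such a p (1999 and 1855 of all 98237 OCRs). Without METH replicate 1 alone 74 did (1587 of all OCRs). Without saline replicate 1 or 4 alone, 190 and 185 did (2214 and 2178 of all OCRs).

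In SVZ, the median log2 fold change was 0.24 (quartiles -0.09 and 0.59), against -0.01 over all OCRs. An unadjusted p under 0.05 was found for 39 (2.04%, against 3.47% of all OCRs), of which 36 were more accessible (1.27% of all OCRs) and 3 less accessible (2.2% of all OCRs). The groups did not overlap at 414 OCRs with higher values (10.6% of all OCRs) and at 93 with lower values (9.61% of all OCRs). The 2 METH libraries had 0.573% and 0.553% of their counts in the hippocampal OCRs and the 3 saline libraries 0.460%, 0.456% and 0.477%. With 3 against 2 libraries an exact permutation test cannot give a p under 0.1. Both METH libraries were in batch 2, and within it the median was 0.29. With batch as a covariate it was 0.10, with the share of counts in the OCRs open in every library as a covariate 0.07, and with a replicate block 0.37. The number with an unadjusted p under 0.05 was 69 without SVZ saline replicate 1 (5863 of all 98237 OCRs). It was 24 without replicate 3 (3139 of all OCRs).

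To see whether the hippocampal OCRs differed between the 2 parts of the hippocampus, DG was compared with CA in the 15 saline libraries, where a call needed a log2 fold change beyond 1 and an FDR under 0.01. None was called in either direction, as was none of all OCRs (0%), and the lowest FDR was 1.00. The rule asked for peaks in both regions, which keeps out OCRs open in DG or CA alone. The median log2 fold change was 0.11 (DG over CA, quartiles -0.06 and 0.30), against 0.05 over all OCRs. With no adjustment, p was under 0.05 for 5 hippocampal OCRs (0.262%, against 0.893% of all OCRs), 4 of them higher in DG (0.783% of all OCRs) and 1 higher in CA (0.11% of all OCRs). With the animal as a block, 17 had such a p (0.889%, against 2.32% of all OCRs), 16 higher in DG (2.1% of all OCRs) and 1 higher in CA (0.218% of all OCRs). Saline libraries of DG and CA did not overlap at 3 OCRs higher in DG (0.685% of all OCRs) and at 0 higher in CA (0.133% of all OCRs). Without CA saline replicate 4, 206 had such a p, and without CA saline replicate 3, DG saline replicate 1 or DG saline replicate 3 the number was 17, 10 and 13. Only hippocampal OCRs were counted in these fits, so the numbers cannot be read against all OCRs. Without CA saline replicate 2 the median turned to -0.11, and it was 0.72 in batch 1 and -0.20 in batch 2.

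At the 3 OCRs with the smallest p for higher values in DG, CA saline replicate 2 was the lowest of the CA saline libraries. At chr1:238069566-238070503 the DG saline libraries had 6.19, 8.77, 6.60 and 6.66 CPM and the CA saline libraries 3.32, 1.18, 5.38 and 4.41 CPM (log2 fold change 0.98 ± 0.38). At chr14:15289953-15290748 they had 5.53 to 8.28 CPM and 3.28 to 5.33 CPM (0.77 ± 0.31), and at chr8:97229016-97229792 they had 5.94 to 16.6 CPM and 2.23 to 9.28 CPM (0.95 ± 0.40). Higher in CA were chr4:5669420-5670191, with 3.43 to 5.26 CPM in DG and 4.60 to 10.2 CPM in CA (-0.66 ± 0.28), chr10:3224678-3225023 (-0.96 ± 0.47) and chr1:166682423-166682945 (-0.97 ± 0.48).

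In the METH libraries, the same comparison gave a median of -0.73, against -0.10 over all OCRs. An unadjusted p under 0.05 was found for 477 hippocampal OCRs (24.9%, against 13.1% of all OCRs), of which 466 were lower in DG (6.83% of all OCRs) and 11 higher (6.3% of all OCRs), and none was called (0% of all OCRs) (lowest FDR 0.377). All 3 OCRs that were higher in DG with saline were lower in DG with METH, at log2 fold changes of -0.95, -0.75 and -0.43. These libraries include DG METH replicates 1 and 4.

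**Figure D5:**
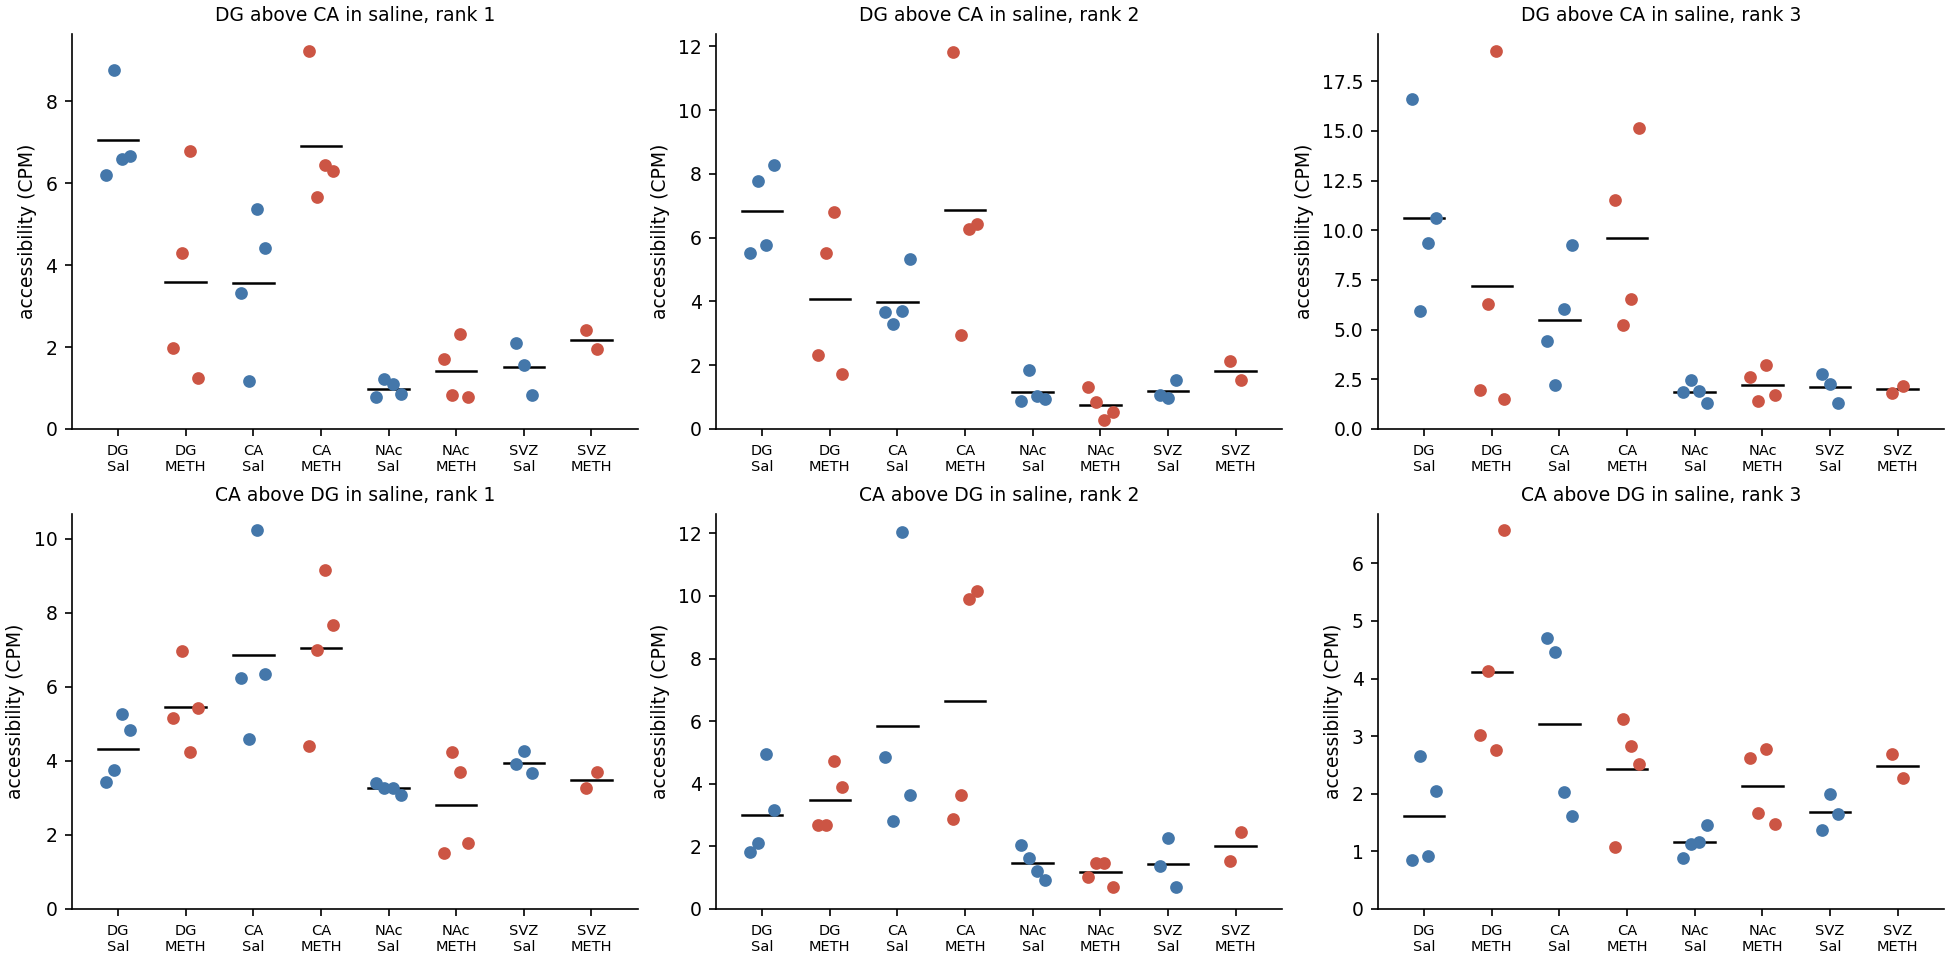
CPM in each library at the 3 hippocampal OCRs with the smallest p for DG above CA in saline (top: chr1:238069566-238070503, chr14:15289953-15290748, chr8:97229016-97229792) and for CA above DG (bottom: chr4:5669420-5670191, chr10:3224678-3225023, chr1:166682423-166682945). Points are libraries in order of replicate (blue saline, red METH) and lines are group means; in the top row the DG group means lie above CA with saline and below CA with METH.

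Outside the hippocampus, NAc and SVZ were compared in the saline libraries in the same way. None of the hippocampal OCRs was called, as was none of all OCRs (0%), with a lowest FDR of 0.997, and the median log2 fold change was 0.00 (NAc over SVZ, quartiles -0.32 and 0.37). The unadjusted p was under 0.05 for 66 (3.45%, against 3.81% of all OCRs), 39 of them higher in NAc (1.41% of all OCRs) and 27 higher in SVZ (2.4% of all OCRs). The libraries did not overlap at 47 OCRs higher in NAc (2.73% of all OCRs) and at 82 higher in SVZ (4.09% of all OCRs). At chr2:94075290-94075911, the smallest p for higher values in NAc, the NAc saline libraries had 1.07, 1.43, 2.73 and 0.617 CPM and the SVZ saline libraries 0.317, 0.348 and 0.236 CPM (log2 fold change 2.24 ± 0.66). At chr5:112907841-112908514 they had 0.682 to 4.28 CPM and 0.317 to 0.608 CPM (2.01 ± 0.66). The 2 OCRs with the smallest p for higher values in SVZ were chr4:52665679-52666417, with 1.02 to 1.70 CPM in NAc and 2.85 to 3.65 CPM in SVZ (-1.21 ± 0.31), and chr15:13597626-13598255, with 0.614 to 1.94 and 1.89 to 3.48 CPM (-1.48 ± 0.44). In DG and CA saline, chr4:52665679-52666417 had 4.18 to 6.04 CPM, and CA saline replicate 2 was not low there.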

How the data were processed

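The members and lists were chosen with earlier results of these data known. ATAC-seq libraries were processed by the authors with the AIAP pipeline at default parameters, which calls peaks per library, and OCRs of all libraries were merged into 1 consensus set. The labels name rn6 and bedtools. The sources used here do not give versions, the transposase offset or the read counter. The authors deposited raw counts per OCR, and peak lists with a fold enrichment (a ratio) and −log10 p and q values per peak. Here, an OCR had a peak in a library when any peak overlapped it by 1 bp. The table starts were counted from 0 and are printed from 1.

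Counts were normalized by the upper quartile and tested with edgeR 4.0.16 in R 4.3.3 (robust quasi-likelihood F test, 8 groups, Benjamini-Hochberg FDR over all OCRs). filterByExpr kept 98237 of 98237 OCRs. Regions were compared in the 15 saline libraries. CPM used the same normalization. In simulated data of that design, 64 of 100 OCRs changed 4-fold were called, but 2 of 100 changed 2-fold. A 2-fold change lies at the fold threshold of the call itself, so the last number does not measure power alone. Apart from these changes, the simulated libraries differed only in depth and independent random spread. Among the unchanged OCRs 2 were called. Peak names gave the animal and 1 of 2 batches (batch 1 held the first 2 replicates of each NAc, DG and CA group and SVZ saline replicate 1). Within a treatment, equal replicate numbers marked 1 animal in NAc, DG and CA. Libraries of 1 animal deviated from their group means with r from -0.52 to 0.73 over 39 pairs, and 18 were above 0.1. Replicates are separate animals within a region, and comparisons between regions reuse animals. The named OCRs were those with the highest mean CPM in hippocampus (6), the smallest p in each direction for DG against CA (3), for METH in DG and in CA (2 each) and for NAc against SVZ (2), and the highest just inside and outside the threshold (2 each). Alternatives were TMM, DESeq2 1.42.0, no filter, a replicate or animal block, batch as a covariate, RUVr factors and libraries left out. A genome or annotation of rn6 was not used here, so genes near OCRs, sequences, motifs and GC content were not analysed here.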

Additional observations from a re-analysis of the deposited data

Results flagged for a closer look

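Of 168 groups of 4 libraries examined (library measures of the hippocampal OCRs and CPM of the named OCRs), 4 had a library farther from the rest than Dixon's test allows at 95%. In independent groups chance flags about 1 in 20, which is more than was found. These groups share libraries, so that comparison is only rough. CA saline replicate 2 had a peak at 799 hippocampal OCRs, against 1717 to 1879 in the other CA saline libraries. NAc METH replicate 3 had a peak at 143 of them, against 47 to 55 in the other NAc METH libraries. In that library the set of NAc and SVZ OCRs had a median of 2.03 CPM, against 6.95 to 10.3 CPM in the other NAc METH libraries. At chr14:15289953-15290748, NAc saline replicate 2 had 1.83 CPM, against 0.876 to 1.02 CPM in the other NAc saline libraries. At chr11:58669733-58670317, DG saline replicate 2 had 1.64 CPM, against 2.71 to 2.86 CPM in the other DG saline libraries. DG METH replicates 1 and 4 were not marked by this rule, since with 2 low libraries in a group of 4 neither stands alone.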

How the results depend on the processing

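No hippocampal OCR was called for METH in any region, for DG against CA or for NAc against SVZ with TMM or without a filter, nor for METH with any 1 library of the region left out (0 to 0 in each region). DESeq2 also called 0 where it gave adjusted p-values (for SVZ, to 29 of 1912), and it gave none in DG. With 5 RUVr factors, 267 were called in DG (14.0%, all less accessible, against 4.56% of all OCRs) and 1 in NAc (0.0523%, against 0.0143% of all OCRs). In CA and SVZ 0 were called, against 0% and 0.0662% of all OCRs. Between NAc and SVZ 4 were called, where only hippocampal OCRs were counted. The cause was not tested. In that fit chr3:91758723-91759333 and chr1:140401076-140401949 passed the DAR threshold in DG. The replicate block, which joins libraries of equal replicate number, changed no call (0 in each comparison). The median log2 fold change with it was -0.63 in DG and 0.32 in CA. For DG against CA in saline the block paired libraries of 1 animal. For METH against saline it joined different animals that share a number, so it was not a pairing by animal. With 1 library left out, the median ran from -1.04 to -0.36 in DG and from 0.02 to 0.50 in CA; it was 0.87 in CA in batch 1 alone. The number of hippocampal OCRs was 97 when all 16 hippocampal libraries had to have a peak, 785 when no library of NAc and SVZ could, 1556 with peaks of a −log10 q above 5, and 1912 when the overlap had to reach 0.5 of the peak. The last setting had little room to change the number, because the consensus set was merged from the OCRs of the libraries. With METH in place of saline libraries, DG against CA reversed at chr1:238069566-238070503 (-0.95), chr14:15289953-15290748 (-0.75), chr8:97229016-97229792 (-0.43) and chr1:166682423-166682945 (0.76). Of 328 fits of the named OCRs under an alternative, 322 kept direction and side of the threshold. These OCRs were named for a small p in the same comparisons and none was called in the main fit, so this number is a description. The fit without a filter equals the main fit, since the filter removed no OCR. Depth limits values near 1 CPM, which stood for 7.55 to 13.8 counts in NAc and SVZ libraries.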
